A study of Mus musculus with 2 samples.

Results

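Among the RNA positions recovered with epitope-tagged FAM120A, 865 of 11670 read clusters (7.41%, 95% Wilson interval 6.95 to 7.9) carried region names of more than 1 class. These multi-class clusters were found by splitting each cluster's name field and reducing every name to its class, which the authors wrote as region B, C1 or C2 or as a splice junction. They are the subject here. What the letters stand for is not given in the sources used here. Of the 865, 779 joined B and C2 (90.1%, 87.9 to 91.9), 48 joined B and C1, 20 joined C1 and C2, and 18 joined B, C1 and C2. A junction name was joined with another class in 0 of them, although 38 other clusters of the list carried one.

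The study used mouse embryonic stem cells with a lentiviral, doxycycline-inducible Fam120a gene, induced with 2.5 µg/mL doxycycline. In line TT-FHFam120a the induced protein carried FLAG and HA tags, and in line TT-Fam120a it carried no tag. Each line gave 1 library, so the tagged and untagged libraries have no replicates, and no test between them was made. The label names embryonic stem cells, and lists of RNA contacts cannot check that name against marker expression. Whether each line is 1 clone or a pool is not stated in the labels, and the labels give no level of the induced protein.

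FAM120A binds RNA and is found together with Argonaute 2, the protein that microRNAs guide to their targets. In iCLIP, ultraviolet light fixes protein to RNA, and reverse transcription tends to stop at the fixed nucleotide, so that reads pile up beside contact sites. A site used many times gives a tall pile at 1 position, and a protein that contacts a stretch of RNA gives lower piles at several positions. Serial immunoprecipitation with FLAG and HA antibodies recovers RNA from cells without the tags as well, and the untagged library measures that background.

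Each cluster is listed with the reads of its own library and the log2 ratio of own to other reads, with 1 added to each and the other library scaled to comparable depth. The lists stop at clusters of 5 reads and at a one-sided binomial p of 0.0494, so every cluster described here had already been selected for enrichment. Clusters held a median of 9 reads among the multi-class members (interval 9 to 9) and 8 among the remaining 10805 (8 to 9). Total library depth is unknown. Reads may be PCR copies, and clusters of 1 locus share a transcript, so the intervals given cover counting error alone. Positions are on mouse build mm9, and since no gene annotation or genome of that build was used here, clusters are named by position and no sequence is shown.

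As measured the same way in the untagged list, 5 of 1134 clusters joined several classes (0.441%, 0.188 to 1.03). All 5 joined B and C2 and were 26 nt wide. They held 23 to 116 untagged reads, and their log2 ratios, here untagged over tagged, ran from 0.43 to 1.42. The cluster with 116 reads lay at chr7:104698338-104698363 (minus strand) and had a ratio of 0.46. That with 103 reads lay at chr2:166480577-166480602 (minus strand), at 0.43. The median of the tagged-list members, tagged over untagged, was 2.81 (2.81 to 3). These values are not like for like, since the tagged-list members held a median of 9 reads and 72% of them had 0 untagged reads.

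The classes contributed unequally to the joins. The tagged list held 6963 names of class B, of which 978 (14%, 13.2 to 14.9) were in multi-class clusters. For class C2 this was 1387 of 8974 names (15.5%, 14.7 to 16.2), and for class C1 it was 88 of 228 (38.6%, 32.5 to 45.1). The rarest class thus had the highest share of its names in joins between classes. This ranking leaves out joins within a class, which are not members by definition. Several names of C2 only were held by 1775 clusters and several of B only by 235, while the 140 clusters of C1 only had 1 name each. The most common make-up was 1 name of B with 1 of C2, in 405 clusters, followed by 1 of B with 2 of C2 in 174 and 1 of B with 3 of C2 in 72. The largest joins held 9 names, in 4 clusters.

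Width differed between the combinations. In the tagged list every B or C2 cluster with 1 name was exactly 26 nt wide, which is the stretch from 12 nt before to 13 nt after its highest position in most of them. Clusters of 1 C1 name were wider without any join, with a median of 39 nt (37 to 41). Multi-class clusters had a median width of 45 nt (44 to 47), with a range of 26 to 183 nt. The B with C2 clusters had a median of 44 nt (42 to 45) and the B with C1 clusters 51 nt (47 to 54). Joins of C1 with C2 had a median of 62 nt (58 to 79), and joins of 3 classes 80.5 nt (69 to 101). The 3-class clusters were thus wider than the B with C2 clusters beyond the intervals of both medians. They also held more names, with a median of 4 against 2, and 3 classes need at least 3 names.

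**Figure D1:**
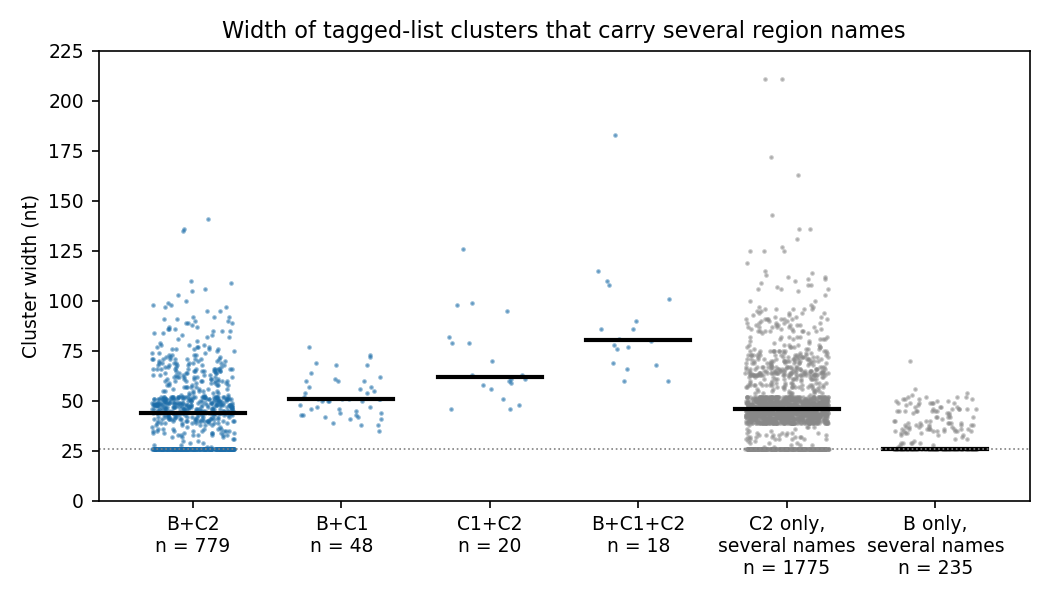
Width in nt of each tagged-list cluster with several region names, by combination of classes (blue) and, for comparison, clusters of C2 only or B only with several names (grey). Each point is 1 cluster, black lines are medians and the dotted line is 26 nt. Medians rise from 44 nt for B with C2 to 80.5 nt for 3 classes, and a row of 265 B with C2 clusters lies at 26 nt.

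A join did not always widen the cluster. Of the 779 B with C2 clusters, 265 (34%, 30.8 to 37.4) were 26 nt wide, so that names of both classes fell on the same 26 nt. No member that contained C1 was this narrow, and the narrowest was 35 nt. Among the 140 clusters of C1 only, 1 was 26 nt wide, so this narrowness was rare for C1 without a join as well. Among the 405 clusters with 1 name of B and 1 of C2, 243 (60%, 55.2 to 64.7) were 26 nt wide. The other 162 exceeded 26 nt by a median of 19 nt (18 to 20) and by at most 26 nt. No pair therefore spanned more than 52 nt, the length of 2 windows end to end.

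The number of names went with width more steadily than with reads. The rise in width is partly built in, since 1 name of B or C2 alone spans 26 nt and further names can only add to it. Median width was 26 nt with 2 names, 49 nt with 3, 61 nt with 4, 74.5 nt with 5, 87.5 nt with 6 and 98 nt with 7. Median reads were 7 (7 to 8) with 2 names, 9 (9 to 10) with 3, 10 (9 to 11) with 4, 13 (12 to 16) with 5, 14 (8 to 27) with 6 and 11 (9 to 22) with 7. The intervals of reads from 5 names upward overlapped. The cluster with 8 names held 18 reads, and the 4 with 9 names held 8 to 15.

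**Figure D2:**
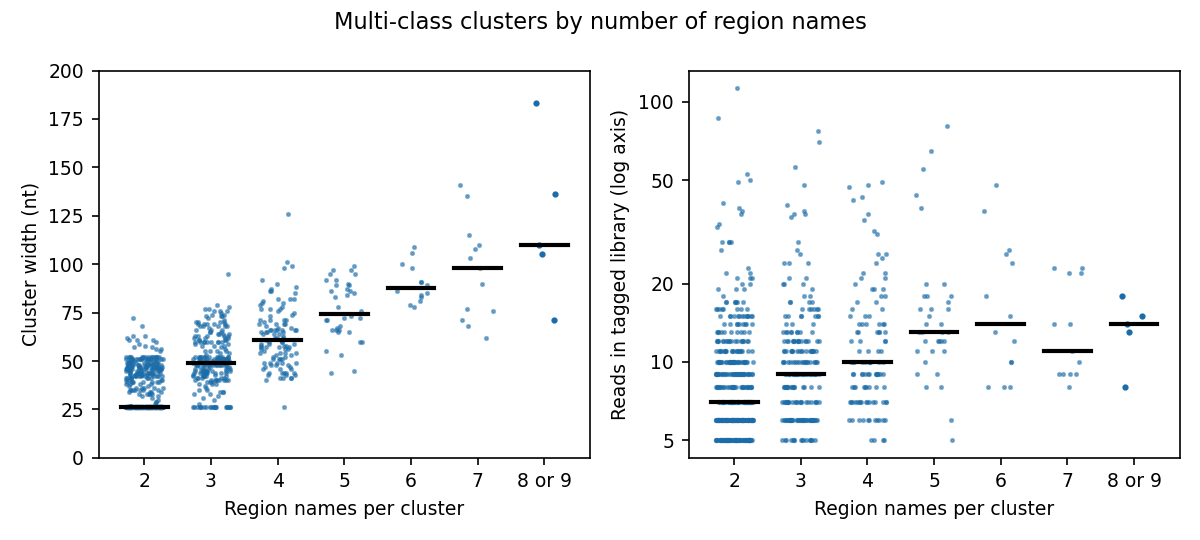
Width in nt (left) and tagged-library reads on a log axis (right) of the 865 multi-class clusters, by the number of region names in the cluster. Each point is 1 cluster and black lines are medians. Median width rises from 26 nt at 2 names to 98 nt at 7, while median reads move between 7 and 14. The rise in width is partly built in, since 1 name of B or C2 alone spans 26 nt.

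At the same width, multi-class clusters held fewer reads in the median than clusters of C2 alone. Among clusters of 51 nt or more, the 305 multi-class clusters had a median of 10 reads (10 to 11) and the 531 clusters of C2 only had 18 (17 to 20). The 12 clusters of B only of this width had 6 (6 to 8). Between 27 and 50 nt the medians were 8 reads (7 to 9) for 295 multi-class clusters, 14 (13 to 15) for 974 of C2 only and 5 (5 to 6) for 98 of B only. At 26 nt they were 8 (7 to 9), 10 (9 to 10) and 6 (6 to 6), and there the intervals of multi-class clusters and C2 only met at 9. In each band of width the median of the multi-class clusters lay between those of the classes.

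Reads were lowest in joins of B with C1, at a median of 6 (6 to 7) and at most 17. The other combinations had medians of 9 (9 to 9) for B with C2 and 10 for C1 with C2 (7 to 11) and for 3 classes (7 to 19). Few members were deep, with 20 or more reads in 78 of 865 (9.02%, 7.29 to 11.1). The rest of the list had 1917 of 10805 (17.7%, 17 to 18.5). Clusters that carried several names of 1 class had 610 of 2010 (30.3%, 28.4 to 32.4). These pool 604 of 1775 for C2 only (34%, 31.9 to 36.3) with 6 of 235 for B only (2.55%, 1.18 to 5.46), so members lay between the 2. Exactly the listing minimum, 5 reads against 0, was held by 98 members (11.3%, 9.39 to 13.6), 10 of them among the 48 joins of B with C1. This was less often than in the rest of the list, at 2616 of 10805 (24.2%, 23.4 to 25), which pools the classes. With 1 name it was 36.8% (35.5 to 38) for B and 12.5% (11.3 to 13.7) for C2. With several names it was 46.8% (40.5 to 53.2) for B only and 1.35% (0.91 to 2) for C2 only. Members were thus close to C2 with 1 name and above C2 only with several names.

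More members than clusters of the whole list passed a limit on the ratio, while the share with 0 untagged reads was close to that of the list. A log2 ratio of at least 3 was reached by 404 members (46.7%, 43.4 to 50), where the whole tagged list had 38.7%. Clusters with several names of 1 class reached it in 1128 of 2010 cases (56.1%, 53.9 to 58.3). These pool 60.8% (58.5 to 63) for C2 only with 20.9% (16.1 to 26.5) for B only. With 1 name it was 53.9% (52.1 to 55.6) for C2 and 22.8% (21.7 to 23.9) for B. Members thus lay above the B clusters and below the C2 clusters. The exact 95% interval of the depth-adjusted ratio lay above 1 for 445 members (51.4%, 48.1 to 54.8), against 46.2% of the list. With several names this was 82.1% for C2 only and 12.8% for B only, and with 1 name 59.4% for C2 and 28.6% for B. The untagged library had 0 reads at 623 members (72%, 68.9 to 74.9), against 69.9% of the list, which pools the classes. With several names this share was 47.5% (45.2 to 49.8) for C2 only and 95.3% (91.8 to 97.4) for B only. With 1 name it was 71.7% (70.1 to 73.2) for C2 and 73.9% (72.7 to 75) for B. By combination, a ratio of at least 3 was reached by 372 of 779 clusters of B with C2 (47.8%, 44.3 to 51.3), 13 of 48 of B with C1 (27.1%, 16.6 to 41), 10 of 20 of C1 with C2 and 9 of 18 of 3 classes. The lower share of B with C1 went with its lower reads, and a ratio against 0 untagged reads depends on tagged reads alone. The part of reads in that share was not tested.

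Where the untagged library had reads at a member, they were few. It had 1 read at 181 members, 2 at 44, 3 at 11 and 4 at 2, before scaling. Only 4 members had 10 or more untagged reads, and all were B with C2. The highest number, 30 untagged reads against 70 tagged reads, was at chr1:115800674-115800722 (minus strand), a depth-adjusted ratio of 1.55 (1 to 2.47). The cluster chr4:131908837-131908862 (minus strand) had 41 tagged against 17 untagged reads, a ratio of 1.61 (0.893 to 3.02). The cluster chr13:21367846-21367897 (plus strand) had 37 against 14, a ratio of 1.76 (0.93 to 3.53), and it was alone in its locus with 91.9% of its reads at 1 position. The intervals of the last pair include equal levels in both libraries.

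Of the 5 deepest members of B with C2, 4 had ratios of 17.1 or more, and the other was the cluster of 70 reads with 30 untagged reads described above, whose log2 ratio of 0.63 was the lowest of all members. The B with C2 cluster with the most reads was at chr7:26028957-26028987 (minus strand), with 113 tagged against 2 untagged reads. Its depth-adjusted ratio was 37.6 (10.2 to 315), and 64.6% of its reads lay at 1 position. It was 31 nt wide and belonged to a locus of 13 clusters. The cluster chr2:151386696-151386721 (plus strand) had 87 reads against 1, a ratio of 58 with an interval of 10.1 to 2316, within a single 26 nt stretch. A cluster of 5 names at chr7:117199300-117199388 (plus strand) had 81 reads against 1, a ratio of 54 (9.42 to 2158). The cluster chr10:127995321-127995346 (minus strand) had 77 reads against 3, a ratio of 17.1 (5.64 to 84.7), with 3 names on the same 26 nt. Their intervals overlap, so these 4 clusters cannot be ordered by ratio. The widest B with C2 clusters were shallower, with 22 reads against 3 over 141 nt from position 135551603 of chromosome 1, minus strand, and 13 against 2 over 136 nt from position 102263301 of chromosome 15, plus strand.

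Joins of 3 classes had the largest median width and held the widest single member, although the next widest members, of 141, 136 and 135 nt, joined B with C2. The deepest, at chr19:44377838-44377923 (plus strand), had 48 tagged reads against 1 untagged read, a ratio of 32 (5.47 to 1289). At most 8 of the 48 reads lay at 1 position. The cluster chr11:115884105-115884182 (minus strand) had 31 reads against 3, a ratio of 6.89 (2.15 to 35.2), with 67.7% of reads at 1 position. On the same chromosome, chr11:102023835-102023942 (minus strand) had 22 reads against 0, at least 4.89-fold against a floor of 3 untagged reads, and its exact interval began at 3.65. The cluster chr6:97183111-97183220 (plus strand) had 23 against 3, and chr1:173059319-173059419 (minus strand) had 19 against 1. The widest member of all, 183 nt with 9 names, lay at chr4:126707165-126707347 (plus strand), with 15 reads against 2, a ratio of 5 (1.16 to 45). A cluster of 115 nt at chr18:38004250-38004364 (minus strand), had 9 reads against 0.

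Joins with C1 but without B reached 16 reads. That cluster, at chr7:120712197-120712266 (plus strand), had 0 untagged reads and was at least 3.55-fold above the floor, with an exact interval from 2.57. At chr1:154684623-154684678 (minus strand), and at chr7:134704773-134704851 (plus strand), 15 reads each stood against 0. The cluster chr9:88347790-88347852 (minus strand) had 12 against 0, and chr6:38554240-38554318 (plus strand) had 12 against 1. The widest, 126 nt from position 90853942 of chromosome 2, plus strand, had 10 reads against 0 and tied highest positions of 2 reads each at 4 places. The next, 99 nt from position 65184233 of chromosome 3, minus strand, had 10 against 1.

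Joins of B with C1, the only combination without C2, were the flattest. The deepest, at chr11:98114129-98114196 (plus strand), held 17 reads with at most 1 at any position, against 0 untagged reads. That is at least 3.78-fold against the floor, with an exact interval from 2.75. The cluster chr6:17616226-17616273 (plus strand) had 15 reads against 1, with 2 reads at each of 7 tied positions. Next came 14 reads against 1 at chr1:72206932-72206988 (minus strand), and 13 against 0 at chr13:24894891-24894950 (plus strand). The cluster chr7:120042628-120042677 (plus strand) had 10 against 1. The widest, 77 nt from position 23948963 of chromosome 17, plus strand, had 6 reads against 0, and 73 nt from position 144182693 of chromosome 5, plus strand had 9 against 1.

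How reads were spread within a cluster differed between B with C1 and B with C2. The share of reads at the highest position had a median of 20% (16.7 to 33.3) for B with C1, 31.9% (25 to 53.3) for 3 classes, 37.5% (35.7 to 40) for B with C2 and 40% (30 to 44.4) for C1 with C2. In clusters of C1 alone, all 140 had at most 1 read at any position. The same held for 22 of 48 joins of B with C1 (45.8%, 32.6 to 59.7), and for none of the other members. All those other members contain C2, and clusters of C2 only never had it, with 0 of 3122 for 1 name and 0 of 1775 for several. The absence in them is thus a trait of C2 clusters and not a result about joins. Clusters with several names of B only had a similar share, 94 of 235 (40%, 33.9 to 46.4), and clusters with 1 B name had 775 of 5495 (14.1%). Several positions tied for the highest in 170 members (19.7%, 17.1 to 22.4), against 1261 of the other 10805 (11.7%, 11.1 to 12.3). Clusters with several names of C2 only were close to the members, with 338 of 1775 (19%, 17.3 to 20.9), and the 11.7% is mostly of clusters with 1 name. The tied positions were a median of 13.5 nt and at most 85 nt apart.

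The place of the highest position was compared in members wider than 26 nt in which 1 position was highest. It was 12 nt inside the 5′ end, or at the matching place at the 3′ end, in 397 clusters and further inside in 52. Clusters of C2 only with several names had 1065 and 137. This split is partly fixed by construction, since a cluster of 2 names, as 208 of the 600 wider members were, has no inner window. Read along the RNA strand, 196 of 356 B with C2 clusters of this kind had it at the 5′ end (55.1%, 49.9 to 60.1). Clusters of C2 only with several names gave 592 of 1065 (55.6%, 52.6 to 58.5). The listed offset is taken as counted from the lower coordinate, which is inferred from the values. It was 6 of 19 for B with C1, 4 of 12 for C1 with C2 and 3 of 10 for 3 classes, too few to order.

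Among the 78 members of 20 or more reads, 61 had at most 50% of reads at 1 position (78.2%, 67.8 to 85.9) and 6 had over 75% (7.69%, 3.57 to 15.8). Clusters with 1 C2 name had 84.1% (80.8 to 87) and 2.65% (1.58 to 4.39), and clusters with 1 B name had 14.6% (12.3 to 17.3) and 66.9% (63.5 to 70.1). Deep multi-class clusters thus had the spread reads of C2 and not the stacked reads of B. This contrast with B moved with where the B clusters lay. Of the B clusters with 1 name, 2827 of 5495 were the only cluster of their locus, a locus being clusters on 1 strand at most 1000 nt apart, and these held 512 of the 518 stacked ones.

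In loci of several clusters, medians of ratio and spread had overlapping intervals at the higher depths. At 20 to 49 reads the median log2 ratio was 3.29 (3.06 to 4.03) for 64 multi-class clusters, 3.17 (3 to 3.42) for 91 of B only and 3.32 (3.25 to 3.42) for 820 of C2 only. The share of reads at the highest position had medians of 34.5% (30 to 40), 38.1% (33.3 to 46.2) and 32.3% (31 to 33.3). At 50 or more reads the ratios were 3.73 (3 to 4.83) for 10, 4.27 (3.03 to 4.72) for 13 and 3.85 (3.75 to 3.98) for 268 clusters. These intervals overlap, which does not show that the kinds are equal. Outside such loci, 415 clusters of B only with 20 to 49 reads had a median ratio of 1.25 (1.2 to 1.29) and 28 of C2 only had 1.05 (0.86 to 1.32), while the 4 multi-class clusters had 2.

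**Figure D3:**
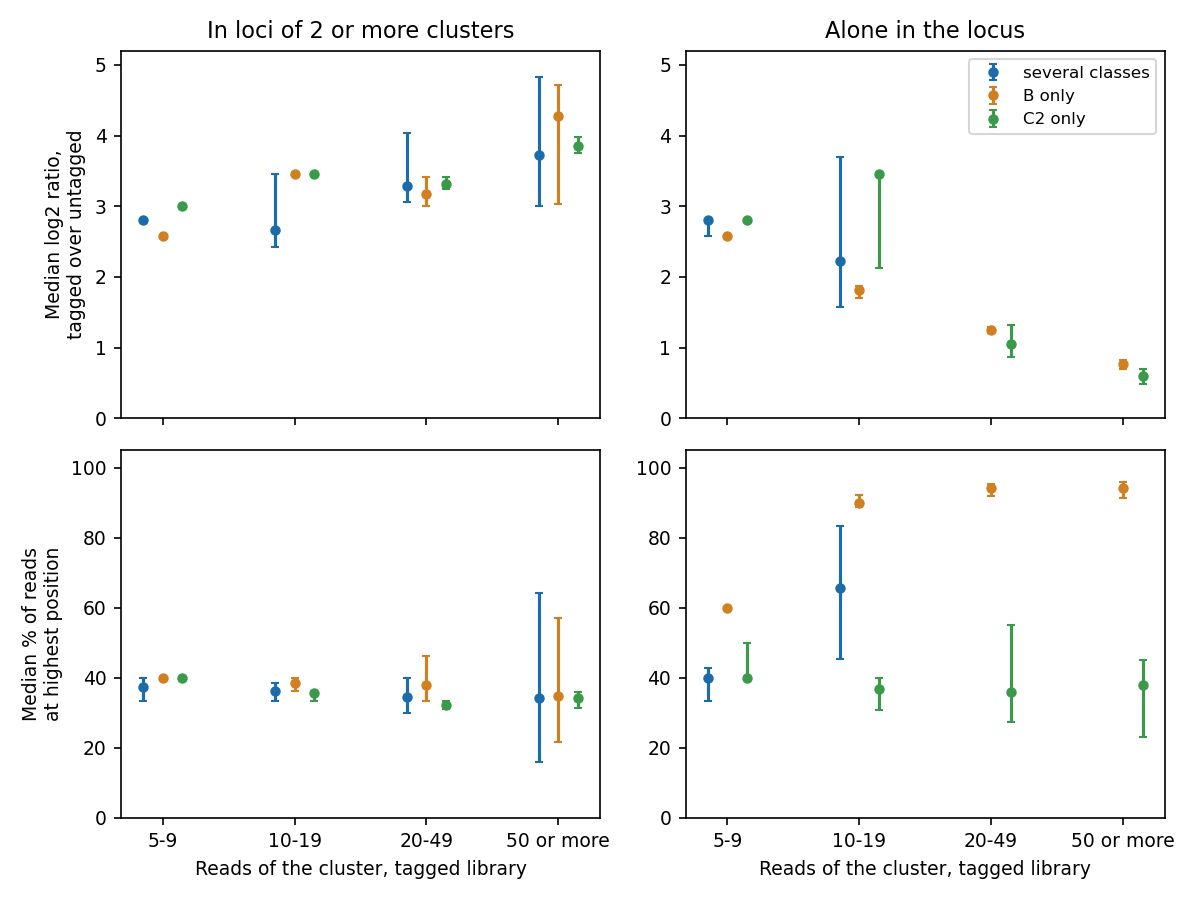
Median log2 ratio of tagged to untagged reads (top) and median percent of reads at the highest position (bottom) by the reads of the cluster, in loci of 2 or more clusters (left) and for clusters alone in their locus (right). Points are medians of multi-class clusters (blue), B only (orange) and C2 only (green), bars are 95% intervals, and groups of fewer than 6 clusters are left out. On the left the 3 kinds overlap at 20 to 49 reads and above, and on the right B only rises to 94.3% of reads at 1 position.

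At 10 to 19 reads in such loci, members met untagged reads more often than clusters of B only, while the interval overlapped that of C2 only. The untagged library had 0 reads at 135 of 284 multi-class clusters (47.5%, 41.8 to 53.3), at 213 of 353 of B only (60.3%, 55.2 to 65.3) and at 54.4% (52 to 56.7) of 1743 of C2 only. Against C2 only, the order was not the same at other depths. At 5 to 9 reads the share at 0 was 94.1% (91.6 to 95.9) for members and 94.2% for C2 only. At 20 to 49 reads it was 34.4% (23.9 to 46.6) and 29.6% (26.6 to 32.8). B only was above members at both depths, with 98.8% (98.3 to 99.2) and 36.3% (27.1 to 46.5). At 20 to 49 reads the intervals of members and B only overlapped. At 10 to 19 reads, width moved with this share. It was 57.3% (46.5 to 67.5) for the 82 members of 26 nt and 43.6% (36.9 to 50.5) for the 202 wider ones. Clusters of C2 only with 1 name, 26 nt wide, had 58.1% (55 to 61.1), and those with several names had 49.6% (46.1 to 53.2). The part of width in this difference was not tested.

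Multi-class clusters lay mostly in company. They occurred in 577 of 4724 loci, and 818 of 865 (94.6%, 92.8 to 95.9) had another cluster in the locus. This was 64.8% (63.8 to 65.8) for clusters with 1 name and 94% (92.9 to 95) for those with several names of 1 class. Both pool the classes. With 1 name it was 92.5% (91.6 to 93.4) for C2 and 48.6% (47.2 to 49.9) for B. With several names it was 95.1% (94 to 96) for C2 only and 86% (80.9 to 89.8) for B only. The median locus around a member held 8 clusters (8 to 9), with 9 (5 to 12) for B with C1, 9 (5 to 14) for C1 with C2, 8 (8 to 9) for B with C2 and 6 (3 to 11) for 3 classes. The intervals of the 4 combinations overlap. All 20 joins of C1 with C2 and all 18 of 3 classes shared their locus with another cluster.

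The share of members was lowest among clusters alone in their locus, and it was higher in loci of 10 to 19 clusters than in loci of 2 to 4, beyond the intervals of both. It was 1.44% (1.09 to 1.91) of the 3261 clusters alone in their locus and 8.47% (7.39 to 9.7) in loci of 2 to 4. Loci of 5 to 9 gave 9.44% (8.36 to 10.6), loci of 10 to 19 gave 11.2% (9.99 to 12.5) and loci of 20 or more gave 9.78% (8.28 to 11.5). Of the 46 loci of 20 or more clusters, 42 held at least 1 member. Of the 3261 clusters alone in their locus, 2827 had 1 name of B. Clusters of C2 only with several names were also rare there, with 87 of 1775, so the low share was not particular to members.

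**Figure D4:**
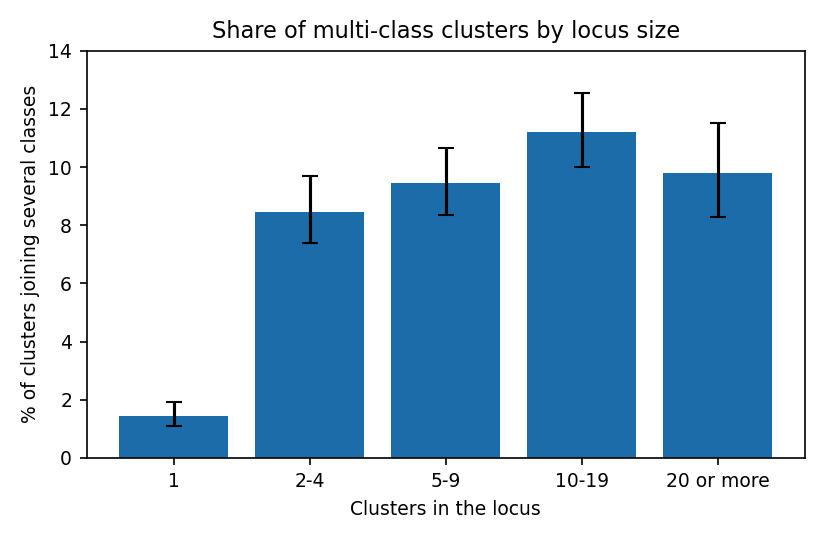
Percent of tagged-list clusters that joined several classes, by the number of clusters in their locus; bars are shares from 0 and error bars are 95% Wilson intervals. The share is 1.44% for clusters alone in their locus and between 8.47% and 11.2% in larger loci. Of the 3261 clusters alone in their locus, 2827 had 1 name of B.

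Neighbours were close, and C2 was the most common class among them, as it was in the loci themselves. A member's nearest cluster on the same strand lay at a median of 19 nt (17 to 21), and at most 10 nt away for 321 members (37.1%, 34 to 40.4). The median was 18 nt (16 to 21) for B with C2 and 34.5 nt (21 to 84) for B with C1. It was 17 nt (16 to 19) for clusters with 1 C2 name and 1677 nt (1031 to 3769) for those with 1 B name. Of the 1383 adjacent clusters in the same loci, 832 were C2 only (60.2%), 372 were B only (26.9%) and 144 were again B with C2. In the loci of several clusters that held a member, 2620 of 4723 clusters were C2 only (55.5%, 54.1 to 56.9) and 1225 were B only (25.9%, 24.7 to 27.2). Clusters lay on both sides of 565 members.

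Within a locus, the ratios of members lay above those of B and below those of C2 in the median over loci, though not in every locus. In 356 loci of at least 5 clusters that held members and others, the median log2 ratio of members minus that of the other clusters had a median of 0 (-0.04 to 0.06), and members were higher in 166 loci, lower in 164 and equal in 26. This median pools the B and C2 neighbours, which lay on opposite sides. Against the B clusters of the same locus, members were higher by 0.15 (0.07 to 0.21) and held 3 more reads (2 to 3) over 330 loci. Their ratio was higher in 191 of these loci, lower in 117 and equal in 22. Against the C2 clusters, members differed by -0.14 (-0.23 to -0.04) and by -2 reads (-2.5 to -1) over 350 loci. Here their ratio was higher in 135 loci, lower in 196 and equal in 19. Ratio and reads moved together in these comparisons. The share of reads at the highest position differed by 0 percentage points (-3.33 to 0.91) from B and by -1.13 (-3.48 to 0) from C2.

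The locus with the most members lay at chr19:44377789-44380845 (plus strand). It held 40 clusters over 3057 nt, of which 7 were multi-class, 31 C2 only and 2 B only. The 7 members held 48, 6, 20, 5, 11, 11 and 7 reads from the 5′ end onward, and their median log2 ratio of 3 equalled that of the other 33 clusters. The member of 48 reads lay near the 5′ end and none of the other 6 exceeded 20. The untagged library had 0 reads at 5 of the 7 and at 11 of the other 33. The members were shallower, with a median of 11 reads against 19, and the part of reads in this difference was not tested. This locus and those that follow were chosen for their number of members.

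**Figure D5:**
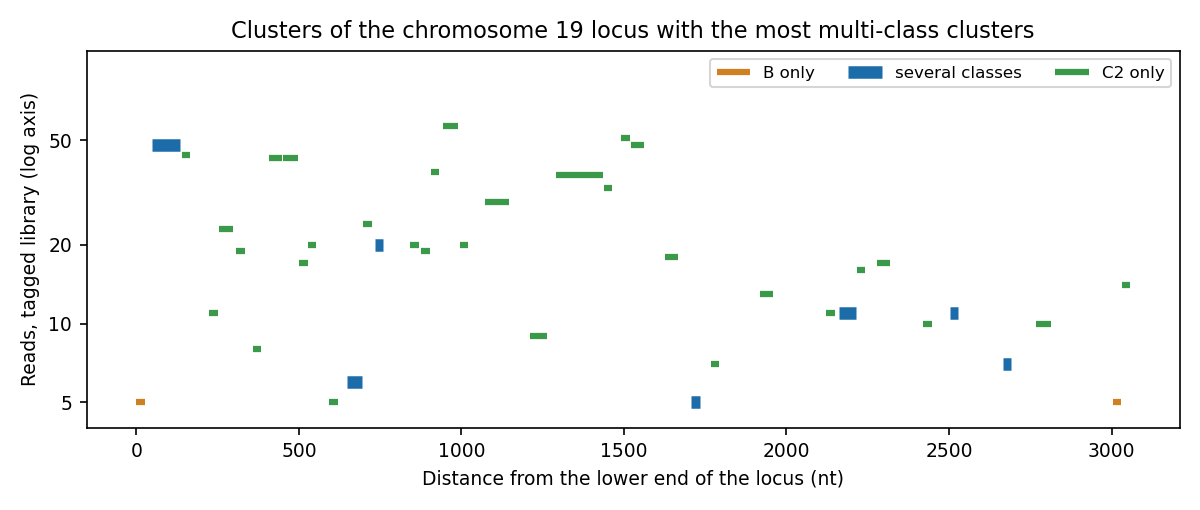
The 40 clusters of the chromosome 19 locus with 7 multi-class clusters, by distance in nt from the lower end of the locus (the 5′ end, since the RNA is from the plus strand) and reads in the tagged library on a log axis. Blue bars are multi-class clusters, green C2 only and orange B only, and bar length is cluster width. Members are scattered along the locus, from 48 reads near the 5′ end to 5 reads further in.

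A second locus at chr19:5796050-5802393 (minus strand), held 6 members among 49 clusters. Their reads were 11, 11, 9, 39, 14 and 10 in order of position, and the untagged library had reads at all 6. The members' median log2 ratio was 1.87, below the 2.7 of the other 43 clusters, of which 12 had 0 untagged reads. The interval of the members' median, 1.46 to 3.32, holds that value. Another 9 loci held 5 members each. At chr12:87860036-87862493 (plus strand), the 5 members held 6, 9, 13, 11 and 9 reads, all against 0 untagged reads, with a median of 3.32 against 3.17 for the other 25. At chr11:88153638-88157718 (minus strand), they held 9, 7, 13, 13 and 16 reads with a median of 3.32 against 2.91. Over the 9 loci the members' median was higher than that of the other clusters in 4, lower in 4 and equal in 1. The lowest was 2.46 against 3, at chr10:62268814-62271315 (minus strand).

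Members occurred on all chromosomes with tagged-list clusters except Y, which held 7 clusters. Their share ran from 5.24% (3.75 to 7.26) on chromosome 8 to 9.27% (7.12 to 12) on chromosome 15, and these intervals overlap slightly. Chromosome 1 held the most, 87, followed by chromosome 11 with 81. On the plus strand lay 419 of 865 (48.4%, 45.1 to 51.8). Among the 48 joins of B with C1 it was 32 (66.7%, 52.5 to 78.3). The mitochondrial genome held 4 members, all B with C2, 26 nt wide and on the plus strand. They had 10, 12, 12 and 9 reads against 0, 2, 1 and 0 untagged reads, and log2 ratios between 1.7 and 3.46.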

How the data were processed

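Reads were placed on mm9, per the submitters' processing notes. How they were aligned, called into clusters and freed of PCR copies is not given in the sources used here. The authors deposited 1 headerless cluster list per library, with a read count per cluster, a log2 ratio, a p-value, and the offset and count of the highest position. These meanings were inferred from the values. In 863 of 865 members the separate count column equalled the count at the highest position.

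Reads of the untagged library were recovered as the whole number giving back the listed log2 ratio (tolerance 0.006) and p-value (0.0001, or 0.001 in relative terms for smaller p), which succeeded for 100% of tagged-list clusters. They were rounded multiples of a factor between 1.5 and 1.502, taken as relative depth (1.501 used), and untagged reads are printed before scaling. A simulated copy of the tagged list gave back 99.99% of such reads and 300 of 300 planted loci, which tests the arithmetic but not what the columns mean.

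Clusters on 1 strand at most 1000 nt apart formed a locus. Intervals are Wilson for shares, binomial order statistics for medians and Clopper-Pearson for read ratios, at the 95% level. Named clusters were the 5 with the most reads and the 2 widest of each combination, any with a junction name, and the 3 with the most untagged reads. Members, lists and rules were chosen with earlier results of these data known. Gene lists that had been set were not used here, since the gene tables at hand were of another build. Alternatives were a p limit of 0.01, a minimum of 20 reads, other locus distances and other class rules. Python 3.11.15, numpy 2.4.6, pandas 2.3.3 and scipy 1.17.1 were used.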

Additional observations from a re-analysis of the deposited data

How the results depend on the processing

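No paired analysis was possible because 1 library stands for each line. Ignoring junction names and taking C1 and C2 as 1 class left 865 and 845 members, and leaving out chrM moved no value beyond its interval. A listed p of at most 0.01 left 518 members, with median reads of 11, a median log2 ratio of 3.17, 89.96% in loci of several clusters and a median of 6 clusters per locus. A minimum of 20 reads left 78, with a median width of 54 nt, 29 reads, a ratio of 3.29, 28.2% at 0 untagged reads, 79.5% in loci of several clusters and 3 clusters per locus. In both cases fewer clusters entered by construction. With loci of clusters at most 100 nt apart, 80.7% of members shared a locus, with a median of 3 clusters. Members wider than 26 nt, an alternative added after seeing the data, had a median width of 51 nt and 68% at 0 untagged reads.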

Other observations

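The numbers in the region names formed 1 series over the classes. The 16165 names of classes B, C1 and C2 in the tagged list carried 16165 distinct numbers, up to 46690, so that no number was used in more than 1 class. In multi-class clusters, 356 of 570 pairs of C2 names listed next to each other had consecutive numbers (62.5%), and in clusters of C2 only with several names 1757 of 2690 did (65.3%). Names of different classes in 1 multi-class cluster had consecutive numbers in 0 pairs.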
